A study of Gallus gallus with 6 samples.

Results

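Prostaglandins are short-lived lipids that act on nearby cells. Phospholipase A2 frees arachidonic acid from membranes, a cyclooxygenase (PTGS1 or PTGS2) turns it into prostaglandin H2, and terminal synthases make prostaglandins E2, D2 and others from that. Prostaglandin E2 signals through the EP receptors, of which EP2 and EP4 raise cyclic AMP and EP3 usually lowers it, and the dehydrogenase HPGD inactivates it. PTGS2 is the inducible cyclooxygenase, switched on by inflammatory signals in macrophages, epithelia and fibroblasts, and in chickens it was first isolated as a gene induced by the src oncogene in embryo fibroblasts.

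The genes described are 10 of this pathway: PLA2G4A, PTGS1, PTGS2, PTGES, PTGES3, PTGDS, HPGD, PTGER2, PTGER3 and PTGER4. All probe sets whose only gene symbol in the platform annotation is one of these were taken, which gave 14 probe sets for 9 of the 10 genes, out of 13009 named genes and 38439 probe sets. PTGES3 had no probe set under its symbol. PLA2G4A, PTGS2, PTGER2, PTGER3 and PTGER4 had 2 probe sets each. The genes were selected on the measured difference between the SCA2 and control arrays, PTGS2 being the one with the largest fall, so for these genes that difference is given below as a description with no test.

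RNA came from cells of the bursa, the gut-associated organ that forms B cells in birds, taken from line 0 chickens aged 3 weeks. In the SCA2 group, bursal cells were kept overnight on a monolayer of SCA2Flag-DF1 cells, chicken fibroblasts of the line DF-1 that carry a Flag-tagged SCA2 (stem cell antigen 2, encoded by LY6E). In the control group they were kept on Vector-DF1 cells, the same line with the vector. Each group had 3 cultures and 3 Affymetrix chicken arrays, with 2000000 bursal cells plated in each culture, a mixed medium with 4% fetal bovine serum in both groups and a temperature of 37 °C. Washing was used to recover the bursal cells from the adherent DF-1 cells, and labelling used 10 µg of total RNA. How much DF-1 RNA remained in each sample is not known here. The sources used here give neither the promoter that drives SCA2 nor the number of birds behind each culture, so the spread between arrays may be partly technical.

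Values are log2 of the deposited intensities. Array medians lay between 51.2 and 53.1 on the linear scale, and the arrays correlated with r between 0.99 and 0.997 within groups and between 0.962 and 0.98 across groups. For the label of bursal cells, 13 of 17 B cell genes were measured, none of them below background on all 6 arrays. Other lists came close to this, with 1 of 11 T cell genes and 2 of 25 fibroblast genes below background on all 6 arrays. The marker lists therefore do not check the label. The mark of background used here, a log2 intensity of 4.90, is the level under which 95% of the values of 689 probe sets named after sequence records, most of them dark, fell. LY6E, read by its brightest probe set, measured 8.79 ± 0.48 on the SCA2 arrays and 10.05 ± 0.76 on the control arrays (SD, n = 3 each), and the groups overlapped. The other LY6E probe sets lay below the mark on all 6 arrays. In the fit described next, the brightest was called lower with SCA2 (difference -1.26 log2; limma, Benjamini-Hochberg adjusted p = 0.0415), with SCA2 3 and control 2 highest of their groups. Whether that probe set reads the introduced transcript is not known here, so it does not check the labels. In the fit over the whole array (limma, Benjamini-Hochberg adjustment, threshold 0.05), 13557 of 38439 probe sets were called, which is 35.3%.

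Among the prostaglandin genes, the enzyme that frees arachidonic acid, the inducible cyclooxygenase, the EP4 receptor and the inactivating dehydrogenase were all lower on the SCA2 arrays. PTGER2 and PTGER3 differed by at most 0.40 on the log2 scale, and PTGDS differed by much but varied as widely within each group. Of the 14 probe sets, 7 were called lower and 0 higher, against 17.1% of all probe sets called lower and 18.2% called higher. The 7 stood for 5 of the 9 measured genes, PTGS2, PLA2G4A, PTGER4, HPGD and PTGS1. In 9 of the 14 probe sets each SCA2 value lay below each control value, against 25.9% of all probe sets, and in 0 was the reverse seen. The median log2 difference, SCA2 minus control, was -1.91 over the 9 genes read by their brightest probe set and -0.01 over all 13009 named genes. The first of these is the value of HPGD, which is set partly against background. Over the 14 probe sets the median was smaller, at -0.77, against -0.05 over all probe sets. As these genes were collected with this contrast known, the counts describe them and support nothing further.

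**Figure D1:**
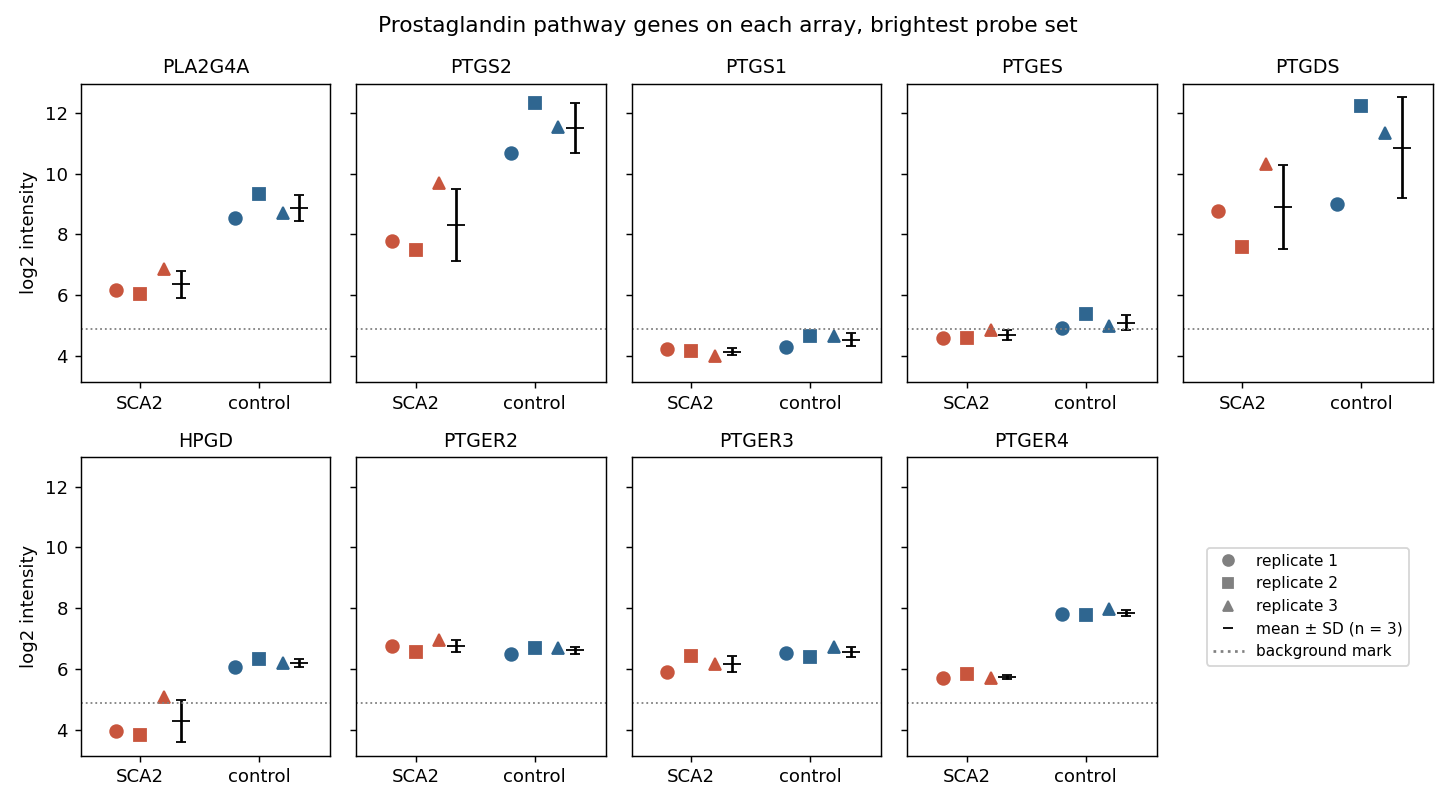
Log2 intensity of the brightest probe set of each of the 9 measured genes, with SCA2 arrays in red on the left and control arrays in blue on the right of each panel; marker shapes give the replicate number, the bar is the mean ± SD (n = 3), and the dotted line is the background mark of 4.90. PLA2G4A, PTGS2, HPGD and PTGER4 show a gap between the groups, PTGDS overlaps widely, and PTGS1 lies under the mark on all 6 arrays.

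PLA2G4A encodes cytosolic phospholipase A2, which releases arachidonic acid from membrane phospholipids when calcium rises. Its brighter probe set read 6.16, 6.05 and 6.87 on SCA2 arrays 1, 2 and 3, against 8.55, 9.35 and 8.72 on control arrays 1, 2 and 3. The groups were 1.68 apart at their nearest values, with SCA2 3 the highest of its group and control 2 the highest of the other. The difference was -2.51 (log2, SE 0.27), or 5.70-fold lower with SCA2. The second probe set gave 5.77, 5.66 and 6.46 on the SCA2 arrays and 7.69, 8.22 and 7.82 on the control arrays, a difference of -1.94 (SE 0.23). Both probe sets thus placed the arrays in the same order at the top of each group.

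PTGS2 showed the widest difference of the 9 genes. Its brighter probe set measured 7.78, 7.50 and 9.68 on the SCA2 arrays, against 10.69, 12.34 and 11.52 on the control arrays. All SCA2 values lay below all control values, but the nearest pair, SCA2 3 and control 1, was only 1.00 apart, while the SCA2 arrays themselves spanned 2.19 and the control arrays 1.65. The difference was -3.20 (log2, SE 0.63), or 9.16-fold lower with SCA2. Without SCA2 3 it was -3.88, and without both SCA2 3 and control 2, an alternative chosen after their values were seen, it was -3.47. In bulk RNA of this kind, fewer cells of a type that carries a transcript and less of the transcript per cell cannot be told apart. Nor can a larger share of DF-1 RNA be told apart from either.

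The other PTGS2 probe set read between 2.55 and 2.88 on the SCA2 arrays and between 2.66 and 2.95 on the control arrays. These 6 values lay below the background mark, so this probe set gives no fold and no check of the brighter one. PTGS1, the constitutive cyclooxygenase, also lay below the mark throughout, at 4.23, 4.17 and 4.01 on the SCA2 arrays and 4.31, 4.65 and 4.67 on the control arrays. Its probe set was among the 7 called lower, but with all values at background level no size is given for the difference.

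The terminal synthases differed in how they could be read. PTGES, the inducible microsomal prostaglandin E synthase, measured 4.61, 4.59 and 4.87 on the SCA2 arrays, all under the mark, and 4.93, 5.38 and 4.99 on the control arrays, all just over it. The groups were 0.07 apart at their nearest, the measured difference was -0.41 (log2, SE 0.14), and the probe set was not called. A lower level with SCA2 is thus not established for PTGES, and no fold is given. PTGDS, the lipocalin-type prostaglandin D synthase, measured 8.78, 7.57 and 10.33 on the SCA2 arrays and 9.01, 12.23 and 11.33 on the control arrays. Its groups overlapped, since control 1 lay below SCA2 3, and the difference of -1.96 (log2, SE 0.93) was not called. The PTGDS difference was -1.28 without control 2 and -2.89 without control 1, so single arrays decided its size.

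PTGES3, the cytosolic prostaglandin E synthase that is also the HSP90 co-chaperone p23, could not be read under its own symbol. Its relative PTGES3L, which is no member of the set, had 4 probe sets with differences of -0.02, 0.35, 0.26 and 0.91 (log2, SE 0.08, 0.08, 0.09 and 0.11), so they disagree on whether there is a change. Of these, 2 were called higher in limma (Benjamini-Hochberg adjusted p = 0.0147 and 7.85e-04), while the brightest, with 0.26, was not (adjusted p = 0.0513).

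HPGD, 15-hydroxyprostaglandin dehydrogenase, carries out the first step of prostaglandin E2 breakdown. It measured 3.96, 3.82 and 5.09 on the SCA2 arrays, against 6.07, 6.32 and 6.21 on the control arrays. SCA2 3 again stood above its group and was the only SCA2 array over the background mark, while the control arrays lay within 0.25 of each other. The difference was -1.91 (log2, SE 0.31), and with 2 of 3 SCA2 values at background level its 3.76-fold size is set partly against background. The gene that breaks prostaglandins down was therefore lower on the same arrays as the genes that start their synthesis.

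The EP receptors did not behave alike. PTGER4, which encodes EP4, measured 5.72, 5.83 and 5.69 by its brighter probe set on the SCA2 arrays, against 7.79, 7.77 and 7.96 on the control arrays. The groups were 1.94 apart at their nearest, the widest gap of the 14 probe sets, and neither SCA2 3 nor control 2 stood out. The difference was -2.10 (log2, SE 0.09), or 4.28-fold lower with SCA2. Its second probe set read 4.97, 4.83 and 4.90 on the SCA2 arrays and 6.39, 5.77 and 5.94 on the control arrays, a difference of -1.13 (SE 0.16) with 1 of the 3 SCA2 values below the mark and the others within 0.1 of it. The smaller size there was thus measured close to background.

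PTGER2, which encodes EP2, gave 6.76, 6.56 and 6.94 on the SCA2 arrays and 6.49, 6.68 and 6.70 on the control arrays by its brighter probe set, with overlapping groups and a difference of 0.13 (log2, SE 0.12). Its second probe set, whose identifier marks it as an antisense design, gave 6.31, 6.61 and 6.52 on the SCA2 arrays and 6.86, 6.64 and 6.93 on the control arrays, a difference of -0.33 (SE 0.11). The 2 probe sets had opposite signs and neither was called. PTGER3, which encodes EP3, gave 5.90, 6.42 and 6.15 on the SCA2 arrays and 6.53, 6.40 and 6.72 on the control arrays by its brighter probe set, a difference of -0.40 (SE 0.15). Its other probe set differed by -0.15 (SE 0.09). In both PTGER3 probe sets the groups overlapped, and neither was called. Whether the difference of PTGER4 is larger than that of PTGER2 or PTGER3 was not tested.

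**Figure D2:**
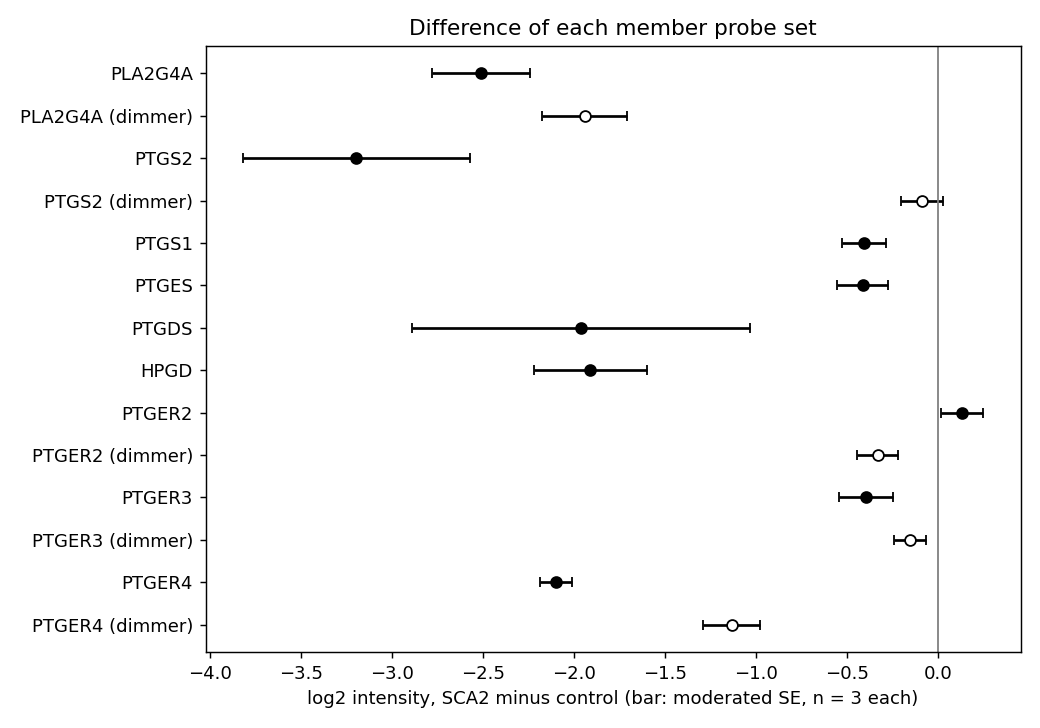
Difference in log2 intensity, SCA2 minus control, for each of the 14 probe sets, with bars giving the moderated SE (n = 3 each); filled points are the brightest probe set of a gene and open points the dimmer one. The points of PLA2G4A, the brighter PTGS2 probe set, PTGDS, HPGD and both PTGER4 probe sets lie below -1, and the SE is widest for PTGDS (0.93) and PTGS2 (0.63) and among the narrowest for PTGER4 (0.09); the points of PTGS1 and of the dimmer PTGS2 probe set rest on values below the background mark.

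How the arrays of 1 group differed among themselves was not part of the rule that chose these genes, although for PTGS2 it was known, and it split them. PTGS2 had a pooled within-group SD of 1.02, against a median of 0.13 over all probe sets, and 0.187% of probe sets varied at least as much. In 6 of the 14 probe sets, those of PTGS2 (the brighter), PLA2G4A (both), PTGES, PTGDS and HPGD, SCA2 3 was the highest SCA2 array and control 2 the highest control array. This order was found in 10.7% of all probe sets and in 53.2% of the 649 whose pooled within-group SD was at least 0.5. It was taken from PTGS2, so the brighter PTGS2 probe set had it by definition, and both PLA2G4A probe sets read 1 gene. The count of 6 is therefore a description and no test against these shares. Relative to the mean of its own group, PTGS2 stood at -0.54, -0.82 and 1.36 on SCA2 1, 2 and 3 and at -0.83, 0.82 and 0.01 on control 1, 2 and 3. PTGDS stood at -0.11, -1.32 and 1.43 on the SCA2 arrays and at -1.85, 1.37 and 0.48 on the control arrays. PTGS2, PLA2G4A, PTGDS and HPGD were thus high on the same replicate cultures. PTGER4 did not share the order: it stood at -0.03, 0.08 and -0.06 on the SCA2 arrays and at -0.05, -0.07 and 0.12 on the control arrays.

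The marker lists of epithelia, macrophages and fibroblasts, the cell types named above for PTGS2, did not move one way: the first 2 were mostly lower on the SCA2 arrays and the fibroblast list was mostly higher. Of all 13009 named genes 20.8% were called lower and 26.2% higher, and the counts of each marker list are to be read against these shares. The epithelium list had 20 of 25 genes measured, of which 14 were called lower and 0 higher, and its mean stood at -0.18, -0.35 and 0.54 on SCA2 1, 2 and 3 and at -0.38, 0.40 and -0.02 on control 1, 2 and 3, relative to the mean of each group. The summed intensity of these 20 genes ran from 4397 to 10430 on the SCA2 arrays and from 16380 to 32600 on the control arrays, and ESRP1 and EHF were below the mark on all 6 arrays. The macrophage and dendritic cell list had 22 of 26 genes measured, with 15 called lower and 0 higher, and stood at -0.07, -0.16 and 0.23 on the SCA2 arrays and at -0.15, 0.19 and -0.04 on the control arrays. Its summed intensity ran from 10390 to 13100 on the SCA2 arrays and from 22030 to 26820 on the control arrays, and TLR4 and XCR1 were below the mark throughout. For the fibroblast list, which could also come from the DF-1 monolayer, 17 of 25 genes were called higher and 3 lower, with a median log2 difference of 1.04, and it stood at -0.02, -0.03 and 0.05 on the SCA2 arrays and at -0.07, 0.05 and 0.02 on the control arrays. Its summed intensity ran from 89460 to 92370 on the SCA2 arrays and from 53820 to 54810 on the control arrays, and ACTA2 and LOX were below the mark throughout. The part of these cell types in the PTGS2, PLA2G4A and HPGD differences was not tested.

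The lists of other cell types moved less within groups than those of epithelium and macrophages, though not less than that of fibroblasts. The B cell list, with 12 of 13 measured genes called lower and 0 higher, stood at -0.02, -0.08 and 0.11 on the SCA2 arrays and at -0.03, 0.02 and 0.01 on the control arrays relative to its group means. The endothelium list, with 1 of 11 genes called lower and 3 higher, stood at -0.04, -0.03 and 0.07 on the SCA2 arrays and at -0.04, 0.10 and -0.06 on the control arrays. Its 3 genes called higher are a share near the 26.2% of all named genes. The T cell list, with 10 of 11 called lower and 0 higher, stood between -0.09 and 0.05, and the list of thrombocytes and erythroid cells, also with 10 of 11 called lower and 0 higher, between -0.13 and 0.07. SCA2 3 and control 2 were thus highest of their groups, as for PTGS2, in the means of 5 of the 7 lists, those of epithelium, macrophages, B cells, fibroblasts and endothelium, and control 2 was the lowest control array in the other two. Gene by gene, this order was found in 14 of 20 epithelium genes, 11 of 22 macrophage genes, 7 of 13 B cell genes, 4 of 25 fibroblast genes, 3 of 11 endothelium genes, 1 of 11 genes of thrombocytes and erythroid cells and 0 of 11 T cell genes. The part of these cell types in the PTGER4 difference was not tested either.

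**Figure D3:**
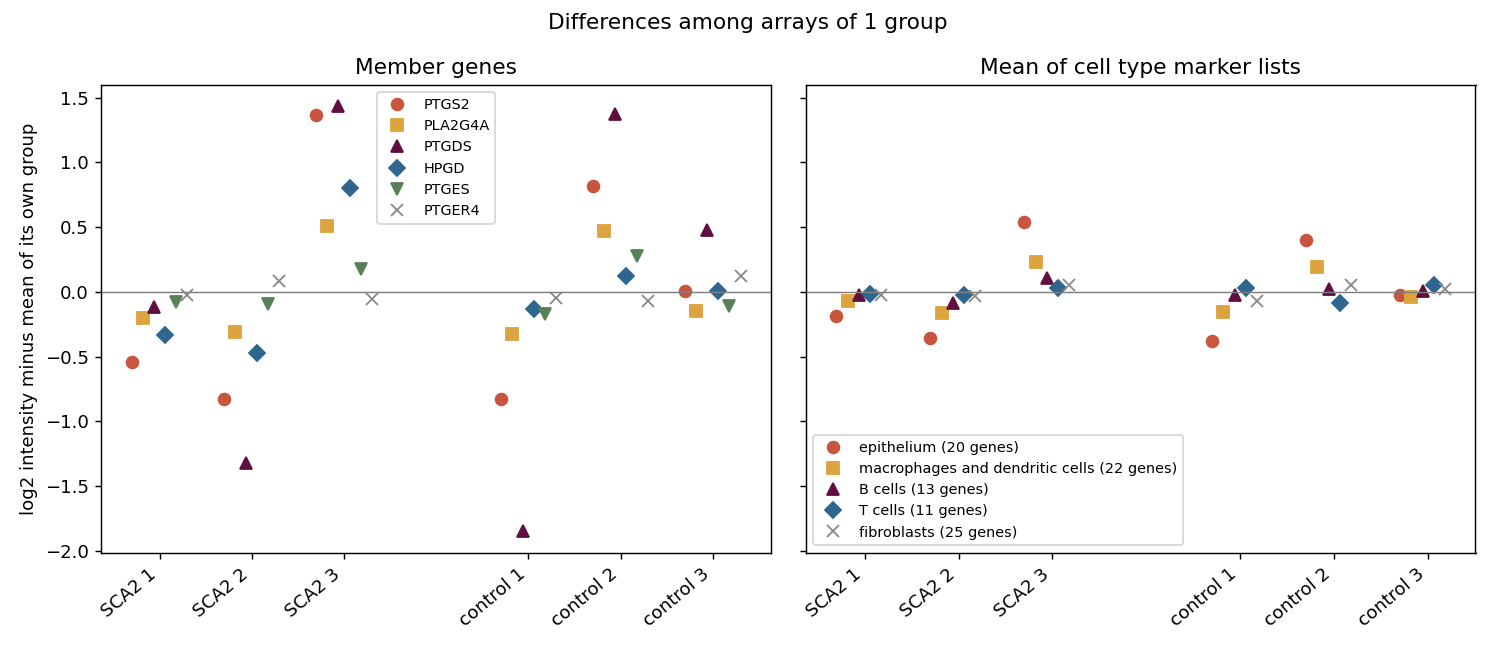
Log2 intensity of each array minus the mean of its own group, for 6 member genes on the left and for the mean of 5 lists of cell type markers on the right; each point is 1 array, SCA2 arrays left of control arrays. PTGS2, PLA2G4A, PTGDS, HPGD and PTGES are highest on SCA2 3 and control 2, as are the means of the epithelium, macrophage, B cell and fibroblast lists, the last 2 by little, while PTGER4 stays between -0.07 and 0.12.

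The genes whose pattern was most like that of PTGS2 were sought among named genes, read by their brightest probe set, as a description with no test. Over the 6 arrays and among 2048 genes with an SD of at least 0.5, the highest Pearson correlations with PTGS2 were those of PLSCR1, a phospholipid scramblase (r = 0.999), CMBL (0.999), RGS18, a regulator of G protein signalling (0.999), CDH1, which encodes E-cadherin (0.999), DIO2, a thyroid hormone deiodinase (0.997), and FABP5, a fatty acid carrier (0.997). The 6 points share the gap between the groups, which most of such an r rests on. After the group means were taken off, 271 genes with a pooled within-group SD of at least 0.5 were left. The closest among them were TIMD4, a phagocyte receptor (r = 0.997), PLSCR1 (0.996), CMBL (0.996), CSF1R, the receptor of macrophage colony-stimulating factor (0.996), CDH1 (0.994) and CLDN1, a tight junction protein (0.993). Of these, TIMD4 and CSF1R are in the macrophage list used here and CDH1 and CLDN1 in the epithelium list. CSF1R, for example, read 7.92, 7.52 and 9.33 on the SCA2 arrays and 9.59, 11.00 and 10.20 on the control arrays, the same order as PTGS2 in both groups. Among the members, the same measure was 0.969 and 0.986 for the probe sets of PLA2G4A, 0.922 for PTGDS, 0.911 for HPGD, 0.884 for the brighter probe set of PTGER2 and 0.877 for PTGES. It was 0.03 for PTGS1, -0.23 for the other PTGER2 probe set, -0.21 and -0.37 for those of PTGER3, -0.40 and -0.53 for those of PTGER4 and -0.51 for the dimmer PTGS2 probe set. Of the members with high values, only the brighter PTGER2 probe set did not have a lower mean on the SCA2 arrays. The lower means of PTGDS and PTGES were not called. For the brighter PTGER2 probe set the pooled within-group SD was 0.16, near the median of 0.13 over all probe sets. The other PTGER2 probe set did not share its value.

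PLA2G4A and PTGS2 are neighbours in the chicken genome, with 0 annotated genes between them in RefSeq's annotation of GRCg7b. The measured genes next on the far side of PTGS2, looked up after the values of both were seen, were PDC, ODR4 and TPR. None of them was called in limma (Benjamini-Hochberg adjusted p = 0.772, 0.554 and 0.271), and ODR4 and TPR differed by -0.07 (log2, SE 0.09) and 0.11 (SE 0.07). The nearest 3 protein-coding genes beyond PLA2G4A had no probe set with their symbol. PDC lay at 3.16 ± 0.07 on the SCA2 arrays and 3.20 ± 0.15 on the control arrays (SD, n = 3 each), below the background mark, whereas ODR4 and TPR were bright in both groups.

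Other genes of the pathway were taken from lists written by their known roles, though with earlier results of these data known. For these the test of the fit over the whole array is given. The part of DF-1 RNA in their differences was not tested. Counts are to be read against the named genes as a whole, of which 20.8% were called lower and 26.2% higher, with a median log2 difference of -0.01. Of 10 further measured enzymes that make or break down prostanoids, 3 rose, 1 fell and 6 were not called, with a median of 0.14. The 3 that rose are a share near the 26.2% of all named genes. PTGR2, a prostaglandin reductase, measured 8.81, 9.00 and 8.86 on the SCA2 arrays and 8.23, 8.26 and 8.22 on the control arrays, a rise of 0.66 (log2, SE 0.08; limma, Benjamini-Hochberg adjusted p = 6.91e-04). ZADH2, which reduces 15-keto prostaglandins in mammals, rose by 0.45 (limma, Benjamini-Hochberg adjusted p = 0.00393; SE 0.08), and AKR1B10, an aldo-keto reductase, rose by 0.29 (adjusted p = 0.0145; SE 0.07). CBR3, a carbonyl reductase, had the widest difference of the 10 and fell by 0.92 (SE 0.09; adjusted p = 3.24e-04 in limma with Benjamini-Hochberg adjustment). The terminal synthases PTGES2 (0.19), HPGDS (0.09) and TBXAS1 (-0.14), of prostaglandins E2 and D2 and of thromboxane, were not called. The call of AKR1B10 was lost without SCA2 1 (limma, Benjamini-Hochberg adjusted p = 0.0518) or SCA2 3 (0.0624), within a range of 0.00516 to 0.109 over its 12 alternatives.

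Among other prostanoid receptors and transporters 1 of 7 measured genes rose, 1 fell and 5 were not called, with a median of -0.17. PPARG, a nuclear receptor that binds prostaglandin D2 products in mammals, measured 4.55, 4.64 and 4.84 on the SCA2 arrays, all below the mark, and 5.79, 5.68 and 5.91 on the control arrays. It was at least 1.86-fold lower with SCA2 (measured difference -1.11 log2; limma, Benjamini-Hochberg adjusted p = 2.34e-04). SLCO3A1, an organic anion transporter that carries prostaglandins in mammals, rose by 0.74 (SE 0.14; limma, Benjamini-Hochberg adjusted p = 0.00563). The prostaglandin transporter gene SLCO2A1 (0.18) and the exporter gene ABCC4 (-0.17) were not called, and PTGFR, the receptor of prostaglandin F2, was below the mark on all 6 arrays.

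Of 25 measured genes that release or handle arachidonic acid, 8 were higher, 7 lower and 10 not called, with a median of 0.05. All named genes also changed in both directions, 26.2% higher and 20.8% lower, shares not far from these. ANXA1, annexin A1, an inhibitor of phospholipase A2, measured 11.30, 11.42 and 11.34 on the SCA2 arrays and 10.51, 10.44 and 10.47 on the control arrays, a rise of 0.88 (log2, SE 0.07; limma, Benjamini-Hochberg adjusted p = 1.37e-04). LPCAT2, which puts fatty acids back onto lysophospholipids, rose by 1.01 (SE 0.10; adjusted p = 2.32e-04 in limma with Benjamini-Hochberg adjustment), and FADS2, a desaturase on the way to arachidonic acid, by 1.08 (SE 0.14; adjusted p = 0.00112), though only 1 of its 2 probe sets moved upward. DAGLA, a diacylglycerol lipase, rose by 0.79 in its brightest probe set (limma, Benjamini-Hochberg adjusted p = 6.17e-04), but just 2 of its 5 probe sets pointed that way and 1 was called in the other. PLA2G7, the phospholipase that breaks down platelet-activating factor, fell by 1.02 (SE 0.09; limma, Benjamini-Hochberg adjusted p = 1.90e-04), FAAH, a hydrolase of fatty acid amides, by 0.94 (adjusted p = 2.61e-04), NAPEPLD by 0.70 (adjusted p = 0.0111) and DAGLB, a second diacylglycerol lipase, by 0.49 (adjusted p = 0.00384). ANXA1 was higher and PLA2G4A lower on the SCA2 arrays, and a link between them was not tested.

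In the leukotriene and lipoxygenase branch, which competes for the same arachidonic acid, 3 of 13 measured genes fell, 1 rose and 9 were not called, with a median of -0.17. The 3 that fell are a share near the 20.8% of all named genes called lower. ALOX5AP, the protein that presents arachidonic acid to 5-lipoxygenase, measured 5.69, 5.68 and 6.75 on the SCA2 arrays and 6.94, 8.83 and 7.62 on the control arrays, a fall of 1.76 (log2, SE 0.49; limma, Benjamini-Hochberg adjusted p = 0.0289). It had the PTGS2 order, with SCA2 3 and control 2 highest. Its call was lost without SCA2 1 (limma, Benjamini-Hochberg adjusted p = 0.0938), SCA2 2 (0.0834) or control 3 (0.0638), and also (0.0703) when the variance was fitted robustly along a trend, the range being 0.00915 to 0.0938. MGST2, a microsomal glutathione transferase that makes leukotriene C4 in mammals, was called lower with SCA2 (limma, Benjamini-Hochberg adjusted p = 0.0136). Its SCA2 values were all below the mark, and its control mean lay 2.13-fold above the mark. That mean rested on control 2, as the control arrays read 5.52, 6.72 and 5.72. Without control 2 the measured difference was -0.88, so no least fold is given. MGST2 also had the PTGS2 order. MGST3, a relative of MGST2, rose by 0.24 (adjusted p = 0.0355 in limma with Benjamini-Hochberg adjustment), and DPEP2, a dipeptidase of leukotriene D4, was called lower (adjusted p = 0.0405) with all values below the mark. MGST3 lost its call on leaving out any 1 array but control 2, within a range of 0.00493 to 0.122, and DPEP2 on leaving out any 1 array, within 0.032 to 0.225. ALOX5 itself (0.07) and LTA4H (0.15) were not called.

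Among inducers and regulators of PTGS2, 14 of 34 measured genes fell, 1 rose and 19 were not called, with a median of -0.22. REL, an NF-kB subunit, measured 10.73, 10.73 and 10.79 on the SCA2 arrays and 11.68, 11.63 and 11.70 on the control arrays, a fall of 0.92 (log2, SE 0.07; limma, Benjamini-Hochberg adjusted p = 9.95e-05). These values are of its brightest probe set, and 2 of its 3 probe sets moved downward. NOS2, the inducible nitric oxide synthase, fell by 1.53 (limma, Benjamini-Hochberg adjusted p = 3.69e-04; SE 0.16), ZFP36L1, which promotes decay of AU-rich mRNAs, by 0.75 (adjusted p = 0.00185) and CELF2, which binds Ptgs2 mRNA in mammals, by 0.64 (adjusted p = 5.27e-04). JUN, a subunit of AP-1, was the member that rose (0.40, SE 0.08; limma, Benjamini-Hochberg adjusted p = 0.00648). IL1B and IL6, cytokine genes named here after their values were seen, fell by 2.21 and 2.62 (limma, Benjamini-Hochberg adjusted p = 0.0113 and 0.00196). IL1B read 6.37, 6.35 and 7.65 on the SCA2 arrays and 8.16, 9.88 and 8.98 on the control arrays, and again SCA2 3 and control 2 were highest. Other transcription factor genes, likewise named after their values were seen, were divided. NFKB1 (-0.55), ATF3 (-0.60) and NFATC1 (-0.72) were called lower (limma, Benjamini-Hochberg adjusted p = 0.00581, 0.00221 and 0.0112). Whether these calls hold under other settings was not checked. CEBPB (0.15), RELA (0.01), NFKB2 (0.00) and EGR1 (-0.03) were not called, nor were some others, among them ATF2, CEBPA and CREB1. RELA read only between 5.11 and 5.32, just above the background mark. On these arrays 9 of the 34 genes had the PTGS2 order, while all values of REL lay within 0.1 of its group means. That order was found in 10.7% of all probe sets and in 53.2% of those with a pooled within-group SD of at least 0.5. No share was taken over genes read by their brightest probe set, so the 9 are a description only. The marker lists of epithelium, B cells, T cells, macrophages and thrombocytes with erythroid cells were lower as well, with medians of -1.47, -1.30, -1.27, -1.25 and -0.63. Their part in this list's counts was not tested.

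Of 28 measured genes of the cyclic AMP machinery below EP2 and EP4, 7 were higher, 8 lower and 13 not called, with a median of -0.14. Both counts are near the shares of all named genes, 26.2% higher and 20.8% lower. ADCY2, an adenylyl cyclase, measured 7.80, 7.60 and 7.77 on the SCA2 arrays and 5.28, 4.80 and 4.80 on the control arrays, a rise of 2.77 (log2, SE 0.14; limma, Benjamini-Hochberg adjusted p = 3.37e-05), with 2 of 3 control values below the mark. ADCY7, the cyclase known for its role in immune cells, measured 7.24, 7.08 and 7.39 on the SCA2 arrays and 8.89, 8.71 and 8.73 on the control arrays, a fall of 1.54 (SE 0.10; limma, Benjamini-Hochberg adjusted p = 6.33e-05). Isoforms of 1 enzyme family thus moved in opposite directions. PDE4D and PDE3B, phosphodiesterases that break cyclic AMP down, fell by 1.45 and 1.07 (limma, Benjamini-Hochberg adjusted p = 5.61e-05 and 1.22e-04), and GRK2, a kinase that desensitises receptors, by 0.59 (adjusted p = 0.0011). RGS2, a regulator of G protein signalling, rose by 1.40 (SE 0.07; limma, Benjamini-Hochberg adjusted p = 2.80e-05), GRK5, another receptor kinase, by 1.16 (adjusted p = 2.19e-04) and GNAS, the stimulatory G protein subunit to which EP2 and EP4 couple, by 0.50 (adjusted p = 0.0012). The GRK5 control values were 4.93, 4.76 and 4.92, 1 of them below the mark and the others just above it. The size of the GRK5 rise is thus set against background. For GNAS, 5 of its 6 probe sets moved upward.

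**Figure D4:**
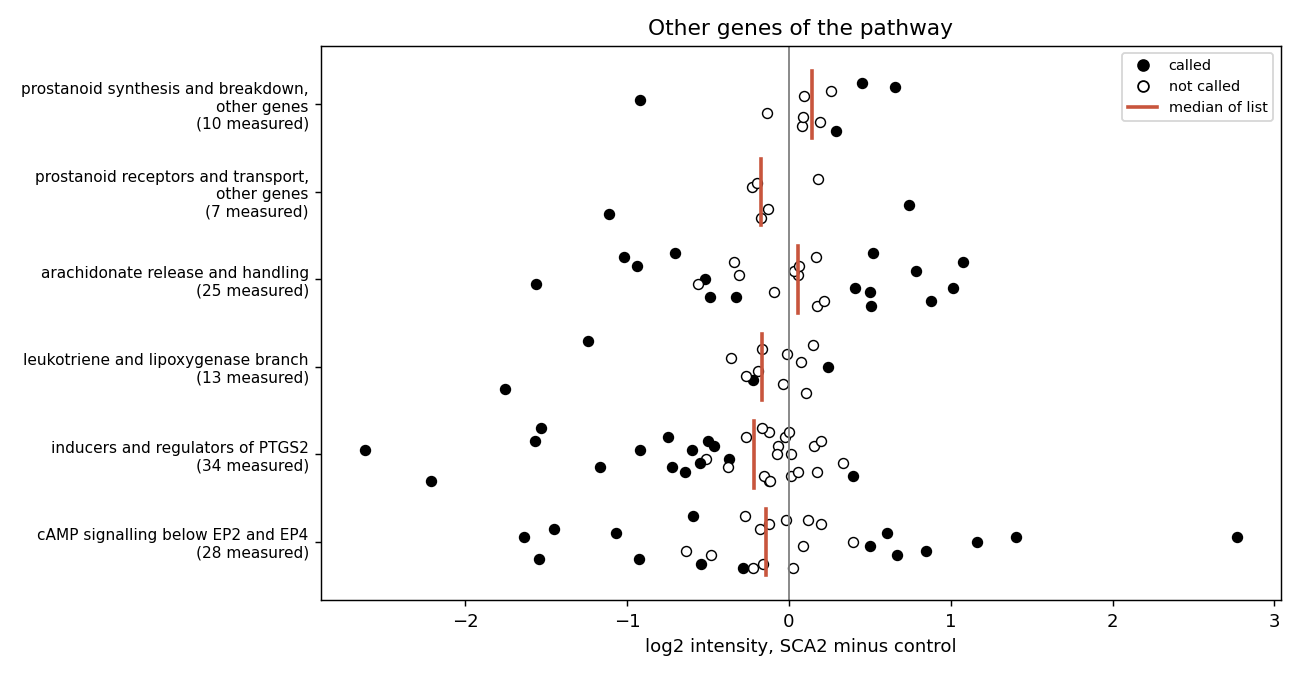
Difference in log2 intensity, SCA2 minus control, of each gene in 6 lists of the wider pathway, 1 point per gene read by its brightest probe set; filled points passed an adjusted p of 0.05 in the fit over the whole array, open points did not, and red lines are list medians. The medians lie between -0.22 and 0.14, and the points of the inducers and regulators of PTGS2 extend furthest to the left, to IL6 at -2.62.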

How the data were processed

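The deposited intensities, 1 per probe set and array, are linear values made by the authors with RMA, per the submitters' processing notes; the sources used here name no version or settings. RMA usually equalises array distributions, which hides any shift shared by all genes. Their log2 was taken. Of 38535 probe sets, 96 array controls were left out and the other 38439 kept without a filter. Genes were named by the platform annotation, 27168 probe sets having 1 symbol, 177 several and 11094 none. A gene in a list was read by its brightest probe set. No probe set was placed on a genome.

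A model with 1 term for the group was fitted to the 6 arrays with limma 3.58.1 (lmFit, eBayes) in R 4.3.3. Benjamini-Hochberg adjustment ran over all 38439 probe sets, with a threshold of 0.05. The procedure was tried on simulated data with independent noise on each array. That does not cover the within-group order that many probe sets share here. Log2 differences are SCA2 minus control, with moderated standard errors. With 3 against 3 arrays an exact permutation test cannot give a p below 0.1, and the number of arrays limits precision. Named were all member probe sets, up to 4 called genes of each direction per list by p, and 6 genes per measure of likeness; others are marked in the text. Members and lists were chosen with earlier results of these data known. The alternatives were a replicate block, a second quantile normalization, centring on medians, a filter at the median, a variance trend with robust fit, gene means over probe sets and leaving out each array. The labels give no batch, so whether batch went with group is not known here, and its part was not tested.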

Additional observations from a re-analysis of the deposited data

How the results depend on the processing

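Under 11 other settings listed above, the PTGS2 difference lay between -3.88 (without SCA2 3) and -2.78 (without SCA2 2). As its groups did not overlap, leaving out any single array could not reverse its sign. The replicate block, the filter and the robust trend fit leave the difference itself unchanged, at -3.20. The member probe sets called lower numbered 5 to 9, and 0 were called higher. Titles give both groups the same replicate numbers and do not say whether these are pairs. Deviations of same-numbered arrays correlated at 0.41, 0.12 and 0.04. SCA2 1 and SCA2 2 went best with the control array of their number, but SCA2 3 went best with control 2 (0.33). With so few arrays these values do not settle the question, and the main fit did not take the numbers as pairs. With the replicate number as a block, 14531 probe sets and 6 member probe sets were called. Over single arrays left out, the calls of the whole array lay between 9875 and 13083, those of the leukotriene branch between 1 and 3. Without SCA2 3 and control 2, chosen after seeing the data, the whole array had 8441 calls, the leukotriene branch 2 and the receptors and transport list 1. The leukotriene branch had 2 after quantile normalization and 2 with the filter, which left 1 in the receptors and transport list because fewer genes were tested. The enzyme list had 7 calls with gene means over probe sets. Beyond the filter, the cause of these shifts was not tested. The other list counts stayed within 1.5 times. Of 33 named genes checked, AKR1B10, ALOX5AP, MGST3 and DPEP2 lost a call under at least 1 of these settings. SLCO3A1 lost its call (limma, Benjamini-Hochberg adjusted p = 0.0569, range 0.00144 to 0.0569) without SCA2 3 and control 2. Values near the background mark limit PTGES, PTGS1, HPGD and the dimmer PTGER4 probe set.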
